A study of Homo sapiens with 18 samples.

Results

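The comparison was the effect of an RNF213 hairpin that is shared by 3 cholangiocarcinoma cell lines. It used 18 of the 18 libraries of the study: 9 libraries with the hairpin shRNF213#2 and 9 libraries with shControl. Each line, HuCCT1, YSCCC and KKU-100, gave 3 shRNF213 and 3 shControl libraries. The labels give the tissue as bile duct for HuCCT1, liver for YSCCC and biliary tract for KKU-100. Every line carried its hairpin stably after lentiviral delivery. The shRNF213 cells are labelled as RNF213 knockdown and the shControl cells as WT. HuCCT1 and YSCCC grew in RPMI-1640 and KKU-100 in Ham's F12, so medium and line cannot be told apart. Only 1 hairpin against RNF213 was sequenced, so an effect of RNF213 loss and an effect of that hairpin's own sequence cannot be told apart. The labels call the replicates biological without saying whether they were separate transductions, so p-values measure the spread between these cultures.

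RNF213 is a very large cytoplasmic protein that joins an AAA+ ATPase to an E3 ubiquitin ligase. It is known as the main susceptibility gene for moyamoya disease, a narrowing of the arteries at the base of the brain. It is induced by interferon, and it has been linked to lipid droplets, to angiogenesis and to the ubiquitin coating of intracellular bacteria. Cholangiocarcinomas arise from cells that line the bile ducts, and the title of the study names RNF213 as a possible suppressor of its local invasion.

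The libraries held between 21056732 and 25502097 counts over 36601 gene IDs, and mitochondrially encoded genes took between 1.61% and 2.76% of them. Biliary epithelial markers were present but uneven. KRT7, KRT8, KRT18, SOX9, EPCAM, CDH1 and KRT19 were abundant in HuCCT1 and YSCCC. In KKU-100 KRT19 had 0 counts in every shRNF213 library and 0 to 4 in shControl. EPCAM had 0 to 3 counts there with shRNF213 and 0 with shControl. CDH1 was also low in KKU-100, at 1.16 to 1.67 CPM with shRNF213, against 0.777 to 4.92 CPM with shControl. KRT7, KRT8 and KRT18 were present in KKU-100 but lower than in the other lines, with KRT7 at 75.5 to 107 CPM with shRNF213 and 86.5 to 191 CPM with shControl. The summed biliary markers ran from 876 to 9950 CPM in shRNF213 libraries and from 1150 to 9750 CPM in shControl libraries, and 0 of the 7 changed with the hairpin. CPM here are counts scaled to library size with TMM factors. Blood and immune markers summed to at most 5.74 CPM in shRNF213 and 3.63 CPM in shControl libraries. Pairs of libraries that stood apart from the rest of their line are given beside the results they touch.

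RNF213 mRNA was lower in every pair of shRNF213 and shControl libraries with the same replicate number. The gene lies at chr17:80260866-80398786 on the plus strand (GRCh38, as the files give it). In HuCCT1 it had 277, 423 and 284 CPM with shRNF213, against 395, 1261 and 430 CPM with shControl. In YSCCC it had 152, 237 and 215 CPM with shRNF213, against 430, 382 and 529 CPM with shControl. In KKU-100 it had 568, 651 and 556 CPM with shRNF213, against 1260, 1004 and 1227 CPM with shControl. The groups did not overlap in YSCCC and KKU-100. In HuCCT1 they did, since shRNF213 replicate 2, at 423 CPM, lay above shControl replicate 1, at 395 CPM. HuCCT1 replicate 2 also stood apart in interferon-stimulated genes. The mean of the 3 within-line effects was -1.01 on the log2 scale (SE 0.11), a 2.01-fold lower level, with an adjusted p of 0.000347 by edgeR's quasi-likelihood test. Within lines the effect was -0.89 in HuCCT1, -1.16 in YSCCC and -0.97 in KKU-100, and the test of a difference between them gave an adjusted p of 0.82. Flipping the signs of the 9 log2 ratios in an exact permutation test (two-sided) gave p = 0.00391, the smallest that 512 flips allow. The overlapping antisense gene RNF213-AS1 had a mean effect of -0.29 (SE 0.16, adjusted p = 0.378 by the same test), and reads of the pair cannot be told apart where the counting did not use strand, which the sources used here do not state.

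Of 19143 genes tested, 555 (2.9%) had a mean effect past an adjusted p of 0.05 by edgeR's quasi-likelihood test: 273 were higher with shRNF213 (1.43%) and 282 were lower (1.47%). The changes were small. The median size among the 555 genes was 0.4 on the log2 scale, against 0.124 over all genes tested, and 23 higher and 13 lower genes reached a 2-fold change. The count rested on comparing libraries within replicate numbers: without the replicate block the same test called 28 genes. It also moved with single pairs of libraries, from 226 genes without HuCCT1 replicate 1 to 1011 genes without KKU-100 replicate 2.

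Most called genes had the same direction in the 3 lines, which the mean itself favours. The 3 within-line effects had 1 sign for 231 of the 273 higher genes and 245 of the 282 lower genes, against 29.1% of all genes tested. Among the called genes, a single direction in all 9 pairs was found for 101 higher and 126 lower genes. Together these are 227 genes (40.9% of those called and 1.19% of those tested), and they are called the 9-pair genes here. Over all genes tested, called or not, 424 (2.21%) had a single direction in all 9 pairs. Among the 9-pair genes the median size of the effect was 0.295 in HuCCT1, 0.494 in YSCCC and 0.413 in KKU-100. The largest of the 3 effects lay in YSCCC for 116 genes, in KKU-100 for 88 and in HuCCT1 for 23. Tested line by line in the same fit, 7 genes were higher and 1 lower in HuCCT1 (0.0366% and 0.00522%), 353 higher and 429 lower in YSCCC (1.84% and 2.24%), and 477 higher and 369 lower in KKU-100 (2.49% and 1.93%). No gene passed the adjusted threshold in each of the 3 lines by edgeR's quasi-likelihood test. At an unadjusted p under 0.05 in each line, 94 genes did so in 1 direction, 37 higher and 57 lower. By limma-voom 0 genes passed in each line, and by DESeq2 5 genes did.

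A line that took no part in a call gives a check on direction that the mean does not fix. Genes called higher over YSCCC and KKU-100 were also higher in HuCCT1 for 148 of 212 (69.8%, against 48.6% of all genes tested), and genes called lower were also lower for 148 of 195 (75.9%, against 51.4%). With YSCCC left out, 35 of 54 higher genes (64.8%, against 50.2%) and 36 of 45 lower genes (80%, against 49.8%) kept their direction there. With KKU-100 left out, 221 of 330 higher genes (67%, against 49.1%) kept their direction. The weakest share was for lower genes in KKU-100, 282 of 502 (56.2%, against 50.9%). Sizes were smaller in the line left out. For example, the higher genes had a median of 0.557 over YSCCC and KKU-100 and of 0.137 in HuCCT1.

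**Figure D1:**
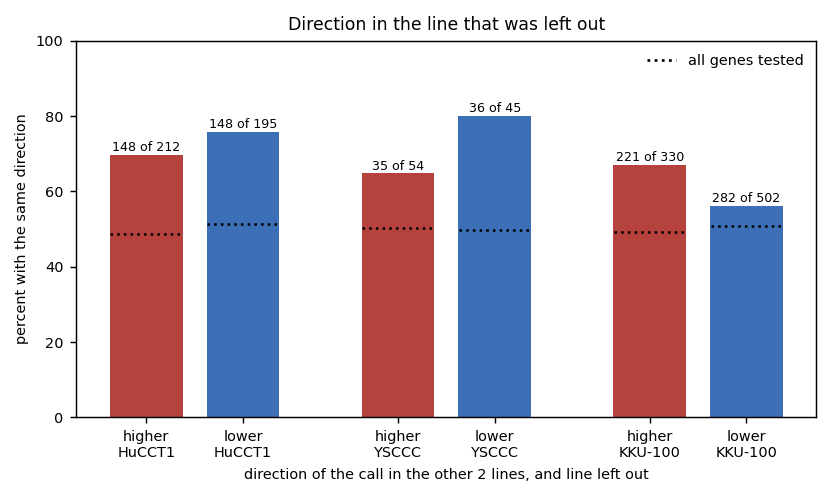
Bars give the percent of genes called on 2 lines that had the same direction in the third, with the counts above them, for genes called higher and lower; dotted lines give the percent of all genes tested with that direction. All 6 bars lie above their dotted line, from 56.2% for lower genes in KKU-100 to 80% for lower genes in YSCCC.

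The lines also differed. The joint test of a difference between the 3 within-line effects called 332 genes (1.73%), and 68 of them were also called on the mean. Of the 227 9-pair genes, which the rule of 1 direction chose, 7 (3.08%) were among the 332.

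Members of gene lists were counted as called on the mean of the 3 lines by edgeR's quasi-likelihood test, except where another tool is named, and their shares stand beside 1.43% higher and 1.47% lower over all genes tested. Counts at an unadjusted p under 0.05 stand beside 3261 of 19143 genes by edgeR, both directions together. DESeq2 counts stand beside its 550 higher and 504 lower of 19143 genes. The counts are small and moved with single pairs, so the lowest and highest count over the 9 fits that each leave out 1 pair is given with most of the lists described.

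Collagen folding was led by SERPINH1, which encodes HSP47, the endoplasmic reticulum chaperone that binds folded procollagen. The HuCCT1 levels were 45.7, 50.5 and 68.9 CPM with shRNF213, against 89.9, 108 and 101 CPM with shControl. The YSCCC levels were 70.6, 40.5 and 60.8 CPM with shRNF213, against 222, 223 and 174 CPM with shControl. The KKU-100 levels were 75.2, 78.2 and 82.2 CPM with shRNF213, against 221, 208 and 217 CPM with shControl. The groups were apart in every line. The mean effect was -1.40 (SE 0.089), a 2.64-fold lower level, with an adjusted p of 5.17e-06 by edgeR's quasi-likelihood test, and the gene kept its call under every alternative tried. Of 31 tested genes of collagen folding and cross-linking, SERPINH1 and P3H4, a partner of the collagen prolyl 3-hydroxylases, fell (6.45%, 2 to 4 genes without 1 pair). P3H4 had a mean effect of -0.36 with -0.91 in YSCCC, and its effects in HuCCT1 and KKU-100 were -0.12 and -0.05. The list's median effect was 0.05 in HuCCT1, -0.24 in YSCCC and -0.03 in KKU-100. On the mean of the lines it was -0.11, beside 0.0023 over all genes tested, and it moved to -0.04 without HuCCT1 replicate 3. Its median log2 ratio was positive in 5 pairs and negative in 4.

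The promoter of SERPINH1 is shown because SERPINH1 had the smallest adjusted p of all genes tested, and that of MCM7 because MCM7 led the replication genes; both were chosen after the matches below were seen. They are the 250 bases before the RefSeq start site (GRCh38.p14), at chr11:75562003-75562252 on the plus strand and at chr7:100101398-100101647 on the minus strand. The gene starts in the deposited files differ from these sites. Capitals mark a heat shock element (alternating GAA and TTC units separated by any pair of bases) in SERPINH1 and an E2F motif, searched as TTTCGCGC, in MCM7. Each motif was searched on both strands.
SERPINH1: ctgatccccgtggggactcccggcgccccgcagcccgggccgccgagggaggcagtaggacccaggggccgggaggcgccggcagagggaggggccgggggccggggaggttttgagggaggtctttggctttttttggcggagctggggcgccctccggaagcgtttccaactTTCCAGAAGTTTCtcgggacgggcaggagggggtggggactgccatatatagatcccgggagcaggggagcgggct
MCM7: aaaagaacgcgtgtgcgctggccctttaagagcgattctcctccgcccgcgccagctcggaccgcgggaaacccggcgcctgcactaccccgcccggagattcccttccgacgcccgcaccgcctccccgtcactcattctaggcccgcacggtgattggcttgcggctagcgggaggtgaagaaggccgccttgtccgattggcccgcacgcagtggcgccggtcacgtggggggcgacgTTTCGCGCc
The match in SERPINH1 begins at -76 and that in MCM7 at -9 from the RefSeq start. In all, 8 motifs were counted over the promoters and 10 pairs of a gene and a motif were looked up. Of the 9 pairs with a promoter entry, 3 held a match and 6 did not. The pair without an entry was IFIT2 with the interferon-stimulated response element. The third match was TTTGAA, the cell cycle homology motif CHR, at -247 in SPC25, a motif that 8.96% of the promoters of tested genes hold. Shares are over the 12728 tested genes with a promoter entry. Pairs with no match were INSIG1 with the sterol element TCACNCCAC, STX3 with the heat shock element, JCAD with the TEAD motif GGAATG, MYBL2 with CHR, and both MCM7 and MYBL2 with the second E2F motif, TTTGGCGC. The heat shock element was in 0.33% of them, in 1 of the 91 lower 9-pair genes with a promoter entry, which is SERPINH1 itself, and in 0 of 82 higher ones. TTTCGCGC was in 0.699%, in 3 of 91 lower and in 1 of 82 higher 9-pair genes. The interferon-stimulated response element was in 2.59% and the cyclic AMP element TGACGTCA in 2.58%. Each was in 1 of 91 lower (1.1%) and 2 of 82 higher 9-pair genes (2.44%), below those shares. The sterol element was in 0.872%, in 2 of 91 lower and in 1 of 82 higher 9-pair genes. CHR was in 10 of 91 lower (11%) and 10 of 82 higher ones (12.2%). The TEAD motif was in 9.88%, in 7 of 91 lower and in 8 of 82 higher ones. TTTGGCGC was in 0.801% and in 0 of the lower or higher 9-pair genes. A match is a description of the letters in the window and not a sign of binding.

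**Figure D2:**
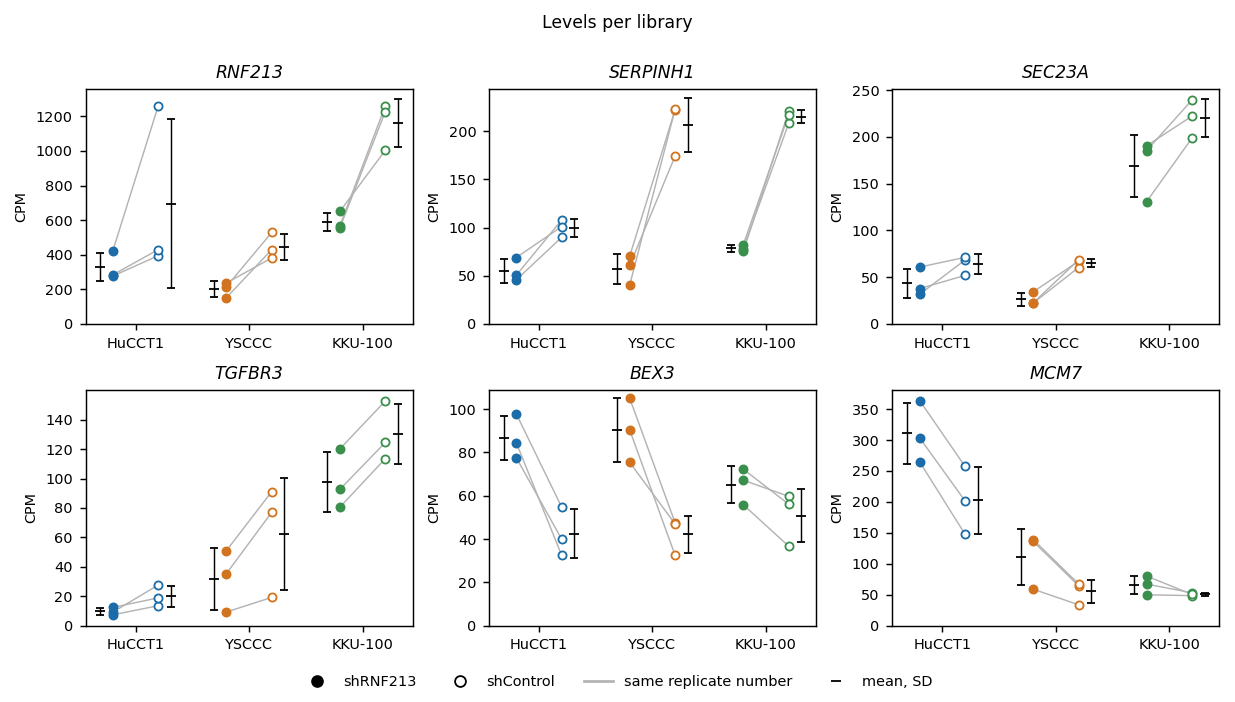
CPM of RNF213, SERPINH1, SEC23A, TGFBR3, BEX3 and MCM7 in each library by line; filled points are shRNF213, open points shControl, grey lines join equal replicate numbers, and black marks give the mean and SD of 3 libraries. SERPINH1 lies between 40.5 and 82.2 CPM in all 9 shRNF213 libraries and between 89.9 and 223 CPM in the shControl libraries.

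Genes of vesicle traffic changed in both directions. SEC23A, a subunit of the COPII coat that buds vesicles from the endoplasmic reticulum, had 37.8, 31.7 and 60.8 CPM in HuCCT1 with shRNF213, against 51.9, 68.4 and 71.2 CPM with shControl. YSCCC cells had 34.2, 22.3 and 22.5 CPM with shRNF213, against 67.1, 60.3 and 68.4 CPM with shControl. KKU-100 cells had 185, 191 and 131 CPM with shRNF213, against 240, 222 and 199 CPM with shControl. shRNF213 and shControl were apart in YSCCC and KKU-100 and overlapped in HuCCT1. Its mean effect was -0.78 (SE 0.089, adjusted p = 0.000459 by edgeR's quasi-likelihood test), and the call was lost when YSCCC was left out (adjusted p = 0.0732). Of 43 tested COPII and export genes 3 rose (6.98%) and 2 fell (4.65%). The cargo receptors TMED2 (0.30), TMED3 (0.31) and TMED7 (0.25) rose, and SAR1A, the GTPase that starts the coat, fell with SEC23A (-0.26). Without 1 pair the counts were 1 to 3 higher and 1 to 2 lower, with 1 and 1 when HuCCT1 replicate 1 or 2 or YSCCC replicate 1 or 2 was left out.

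STX3, a plasma membrane syntaxin of apical exocytosis in epithelia, was lower in every line with groups that did not overlap. It had 92.6, 83.3 and 119 CPM in HuCCT1 with shRNF213, against 130, 151 and 137 CPM with shControl. In YSCCC it had 88.7, 70.7 and 113 CPM with shRNF213, against 182, 135 and 175 CPM with shControl. In KKU-100 it had 11.5, 8.48 and 6.97 CPM with shRNF213, against 17.2, 21.2 and 24.5 CPM with shControl. Over the 3 lines the mean effect was -0.87 (SE 0.10, adjusted p = 0.000524 by edgeR's quasi-likelihood test). Of 79 tested Golgi and endosomal genes 5 rose (6.33%, 4 to 6 without 1 pair) and 2 fell (2.53%, 1 to 3). RAB6A, a GTPase of Golgi traffic, rose by 0.46, the Golgi stacking protein gene GORASP1 by 0.38 and the late endosomal RAB9A by 0.53, the last with an effect of -0.05 in KKU-100. STARD3NL, which tethers late endosomes to the endoplasmic reticulum, rose by 0.80 and was higher in 9 of 9 pairs. Among 72 lysosomal genes the shares lay near those of all genes: 2 rose (2.78%, 1 to 6 without 1 pair) and 1 fell (1.39%, 1 to 4). The lower gene was MITF, a transcription factor of lysosomal genes (-0.59).

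Genes of several growth factor pathways changed. TGFBR3 encodes betaglycan, a coreceptor of TGF-beta. HuCCT1 cells had 7.38, 9.25 and 12.4 CPM with shRNF213, against 13.6, 27.6 and 18.9 CPM with shControl. The YSCCC levels were 51, 35.3 and 9.28 CPM with shRNF213, against 91.2, 77.1 and 19.2 CPM with shControl. The KKU-100 levels were 120, 92.6 and 80.5 CPM with shRNF213, against 153, 125 and 113 CPM with shControl. HuCCT1 was the only line where the groups did not overlap, and every pair was lower. The mean effect was -0.81 (SE 0.082, adjusted p = 0.00023 by edgeR's quasi-likelihood test). Of 50 tested TGF-beta and BMP genes 4 fell (8%, 3 to 5 without 1 pair) and 2 rose (4%, 0 to 4). The others that fell were the receptor gene TGFBR1 (-0.33), the BMP target ID3 (-0.54) and INHBE, an activin subunit (-1.05, with -0.08 in KKU-100). The ligand gene TGFB1 (0.32, higher in 9 of 9 pairs) and SMAD1 (0.24) rose.

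Of 63 tested Wnt and Notch genes 3 fell by edgeR (4.76%), while DESeq2 called 5 lower and 3 higher. The Wnt receptor gene FZD5 (-0.75), NOTCH1 (-0.34) and the ligand gene WNT3 (-0.36) were each lower in 9 of 9 pairs. Without 1 pair edgeR called 0 to 3 genes of this list higher and 1 to 3 lower. A single gene of this list was called without HuCCT1 replicate 2 or without YSCCC replicate 1, and 3 were higher without KKU-100 replicate 2. Among receptor kinases, DDR2, a receptor for fibrillar collagen, fell by 0.84, and the list of the EGFR family, other receptor kinases and ligands held 4 higher (8.16%, 3 to 6 without 1 pair) and 2 lower genes (4.08%, 0 to 5) of 49. EFNA5 (0.50), EFNB2 (0.64), BTC (0.45) and TGFA (0.49) are ligands and rose, while EPHB2, an ephrin receptor, fell (-0.30). The effect on TGFA was 1.73 in KKU-100, -0.03 in HuCCT1 and -0.25 in YSCCC, and the test of a difference between lines gave an adjusted p of 0.000929 by edgeR's quasi-likelihood test.

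Genes of the YAP and TEAD list were more often lower than higher. Of 45 tested, 7 fell (15.6%, beside 1.47% of all genes tested) and 1 rose, and the median effect was -0.06. Those that fell held both transcriptional targets and upstream parts of the Hippo pathway. JCAD, a junction protein that binds LATS2, fell by 1.04, NUAK2, a kinase induced by YAP, by 0.84, FRMD6 by 0.48, the transcription factor gene TEAD1 by 0.44, and the Hippo kinase genes LATS1 by 0.37 and LATS2 by 0.24, with the scaffold gene AMOTL1 at -0.29. LATS1, FRMD6, NUAK2, JCAD and TEAD1 were lower in all 9 pairs. JCAD had 23.7, 14.2 and 22.2 CPM in YSCCC with shRNF213, against 135, 75.8 and 43.9 CPM with shControl. In HuCCT1 it had 116, 58.6 and 141 CPM with shRNF213, against 143, 120 and 174 CPM with shControl. KKU-100 cells had 1, 1.48 and 1.15 CPM with shRNF213, against 1.35, 2.51 and 1.74 CPM with shControl, close to the lower end of what was tested. The groups were apart in YSCCC alone. Its adjusted p was 0.0058 by edgeR's quasi-likelihood test. Over the fits without 1 pair the list had 3 to 9 lower genes, with 3 when HuCCT1 replicate 2 or YSCCC replicate 1 was left out.

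Of 40 tested genes of the NF-kappaB list 5 fell (12.5%) and 1 rose (2.5%), and 29 of the 40 had a negative mean effect (median -0.07). TNFAIP3, the ubiquitin-editing enzyme A20 that limits NF-kappaB signalling, fell by 0.60 (SE 0.064, adjusted p = 0.000299 by edgeR's quasi-likelihood test). It had 206, 155 and 111 CPM in HuCCT1 with shRNF213, against 259, 155 and 131 CPM with shControl. YSCCC cells had 15.6, 26.2 and 27.5 CPM with shRNF213, against 26.4, 50.1 and 54.8 CPM with shControl. In KKU-100 it had 173, 210 and 78.1 CPM with shRNF213, against 353, 302 and 119 CPM with shControl. The groups overlapped in every line while 8 of 9 pairs were lower. OTULIN, which removes linear ubiquitin chains, fell by 0.35, and the inhibitor gene NFKBIE by 0.33. The genes that fell thus include inhibitors of the pathway as well as TRAF2 (-0.26) and IL32 (-0.58, with -1.51 in YSCCC and 0.09 in HuCCT1). TRAF3 rose by 0.27. The list had 2 to 6 lower genes without 1 pair, with 2 when HuCCT1 replicate 1, YSCCC replicate 1 or YSCCC replicate 3 was left out.

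Of 57 tested interferon-stimulated genes 3 fell (5.26%, 1 to 5 without 1 pair) and 1 rose (1.75%, 0 to 2), and the median was -0.03. IFIT2, an RNA-binding antiviral protein, had 73, 330 and 81.3 CPM in HuCCT1 with shRNF213, against 90.8, 637 and 145 CPM with shControl. In YSCCC it had 197, 116 and 133 CPM with shRNF213, against 250, 139 and 142 CPM with shControl. The KKU-100 levels were 568, 360 and 320 CPM with shRNF213, against 1798, 819 and 834 CPM with shControl. Every pair was lower and the groups were apart in KKU-100 alone. Over the 3 lines the mean effect was -0.78 (SE 0.072, adjusted p = 0.000219 by edgeR's quasi-likelihood test), and the effects of -0.70, -0.23 and -1.41 in HuCCT1, YSCCC and KKU-100 differed (adjusted p = 0.0129). The RNA sensor genes DDX58 (-0.34) and IFIH1 (-0.28) also fell and PARP12 rose (0.28). The summed interferon genes of HuCCT1 replicate 2 were 19268 CPM with shRNF213 and 19708 CPM with shControl, against 4416 and 4458 CPM in the other shRNF213 and 4006 and 5305 CPM in the other shControl libraries of that line. Without that pair 1 gene of the list fell and 1 rose. CD274, which encodes the checkpoint ligand PD-L1, was lower in 9 of 9 pairs (-0.67, adjusted p = 0.000702), and the chemokine genes CXCL10 (-0.75) and CXCL11 (-0.82) fell. These were the 2 genes called of 49 in the cytokine list (4.08%, 0 to 4 without 1 pair), where 10 had a negative effect at an unadjusted p under 0.05 and DESeq2 called 6 lower. Neither kept its call by edgeR without HuCCT1 replicate 1, 2 or 3 or without YSCCC replicate 1.

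INSIG1, a sterol-regulated retention protein that holds back SREBP processing, was the only gene called by edgeR among 33 of cholesterol synthesis and uptake (3.03%). Without KKU-100 replicate 1 the list had 5 lower genes, and DESeq2 called 2. It had 78.4, 133 and 140 CPM in HuCCT1 with shRNF213, against 88, 195 and 143 CPM with shControl. The YSCCC levels were 69.1, 31.9 and 20.8 CPM with shRNF213, against 143, 46.7 and 62.1 CPM with shControl. KKU-100 cells had 9.74, 12.5 and 10.3 CPM with shRNF213, against 13.8, 55.1 and 83.9 CPM with shControl. shRNF213 and shControl were apart in KKU-100 alone. The mean effect was -1.09 (SE 0.18, adjusted p = 0.00502 by edgeR's quasi-likelihood test), and the list's median of -0.12 moved to -0.01 without KKU-100 replicate 3, where its median log2 ratio was -0.99.

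Of 38 genes of the ATF4 and amino acid response edgeR called 4 lower (10.5%), while DESeq2 called 4 lower and 2 higher. By edgeR the lower genes were NUPR1 (-0.60), SESN2 (-0.37), DDIT3 (-0.40) and the glycine transporter gene SLC6A9 (-0.31). SESN2, a stress-induced brake on mTORC1, was the only one lower in 9 of 9 pairs. The summed genes of this list in YSCCC replicate 3 were 8215 CPM with shRNF213 and 7765 CPM with shControl, against 3520 to 3908 CPM in the other shRNF213 and 3256 to 3595 CPM in the other shControl libraries of YSCCC. All 4 calls were lost without HuCCT1 replicate 1, where the list's median log2 ratio was -0.34 and its genes summed to 4869 CPM with shRNF213 and 6279 CPM with shControl. The list had 1 lower gene without HuCCT1 replicate 2, YSCCC replicate 1 or YSCCC replicate 2. Its median effect on the mean of the lines was -0.02.

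Higher genes included several proteins of the cell surface and matrix. BEX3, a small adaptor of the p75 neurotrophin receptor, had 77.6, 84.5 and 97.8 CPM in HuCCT1 with shRNF213, against 39.9, 32.5 and 54.8 CPM with shControl. YSCCC cells had 105, 90.3 and 75.4 CPM with shRNF213, against 47.4, 32.4 and 46.9 CPM with shControl. In KKU-100 it had 55.8, 67.1 and 72.3 CPM with shRNF213, against 36.7, 59.7 and 56.1 CPM with shControl. Levels did not overlap in HuCCT1 and YSCCC. Over the 3 lines the mean effect was 0.84 (SE 0.084), a 1.8-fold higher level, with an adjusted p of 0.00023 by edgeR's quasi-likelihood test. It was the only one of 12 tested BEX, TCEAL and MAGED genes to change.

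HPSE encodes heparanase, which cuts the heparan sulfate chains of the matrix. It had 14, 16.8 and 16.9 CPM in HuCCT1 with shRNF213, against 8.71, 9.88 and 12.1 CPM with shControl. In YSCCC it had 28.2, 26.3 and 17.7 CPM with shRNF213, against 22.6, 20.1 and 11.6 CPM with shControl. The KKU-100 levels were 5.25, 3.72 and 4.62 CPM with shRNF213, against 1.92, 1.57 and 1.35 CPM with shControl. The groups were apart in HuCCT1 and KKU-100, and 9 of 9 pairs were higher. The mean effect was 0.85 (SE 0.085, adjusted p = 0.00023 by edgeR's quasi-likelihood test). Among 46 matrix proteases and inhibitors 2 rose (4.35%, 2 to 4 without 1 pair), HPSE and ADAM9 (0.49), and 2 fell (4.35%, 0 to 2 without 1 pair), among them MMP14 (-0.52, with 0.12 in HuCCT1). Of 50 collagens and matrix glycoproteins 5 rose (10%, 2 to 7 without 1 pair) and 1 fell (2%, 0 to 2). COL4A5, a basement membrane collagen (0.61), COL9A3 (0.77), LTBP3 (0.31), COL5A2 (0.47) and ABI3BP (0.91) rose, and fibronectin, FN1, fell (-0.56, with -1.29 in YSCCC). The FN1 call was lost without HuCCT1 replicate 2 or 3 and without YSCCC replicate 1 or 3. COL4A5 rose chiefly in KKU-100, where it had 24.5, 30.5 and 22.4 CPM with shRNF213, against 6.06, 16.1 and 8.93 CPM with shControl.

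ST6GAL1, the sialyltransferase that adds alpha-2,6-linked sialic acid to N-glycans, rose by 1.00 (SE 0.17, adjusted p = 0.00629 by edgeR's quasi-likelihood test) and was higher in 9 of 9 pairs. The HuCCT1 levels were 34.2, 45.9 and 35.5 CPM with shRNF213, against 15.2, 20.5 and 21.3 CPM with shControl. The YSCCC levels were 12.3, 27.9 and 58 CPM with shRNF213, against 6.4, 3.65 and 37.9 CPM with shControl. KKU-100 cells had 11.6, 19.6 and 12.8 CPM with shRNF213, against 8.59, 13.2 and 7.62 CPM with shControl. shRNF213 and shControl were apart in HuCCT1 alone, and replicate 3 of YSCCC was the highest of its line in both arms. The thrombin receptor gene F2R (0.71) and the related protease receptor gene F2RL1 (0.68) were both higher in 9 of 9 pairs, with the G protein gamma subunit genes GNG11 (0.62) and GNG12 (0.36). These were the 4 genes called by edgeR among 97 of G protein and phosphoinositide signalling (4.12%, 3 to 13 without 1 pair), while DESeq2 called 12 higher and 1 lower. MUC1, a membrane mucin of ductal epithelium, rose by 0.43 with effects of 0.47, 0.44 and 0.37 in HuCCT1, YSCCC and KKU-100. Its call was lost in 3 of the 9 fits without 1 pair and when YSCCC was left out. The list of mucins, trefoil factors and biliary markers held 2 higher genes of 46 tested (4.35%, 0 to 4 without 1 pair). Of 46 angiogenic factors and semaphorins 5 rose (10.9%, 2 to 6 without 1 pair) and 2 fell (4.35%, 1 to 2). VEGFC, a lymphatic growth factor, rose by 0.52, with SEMA3A (0.39), SEMA3E (0.70), NRP1 (0.36) and SEMA3C (0.29), and PLXND1, a semaphorin receptor, fell by 0.37 with JCAD.

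**Figure D3:**
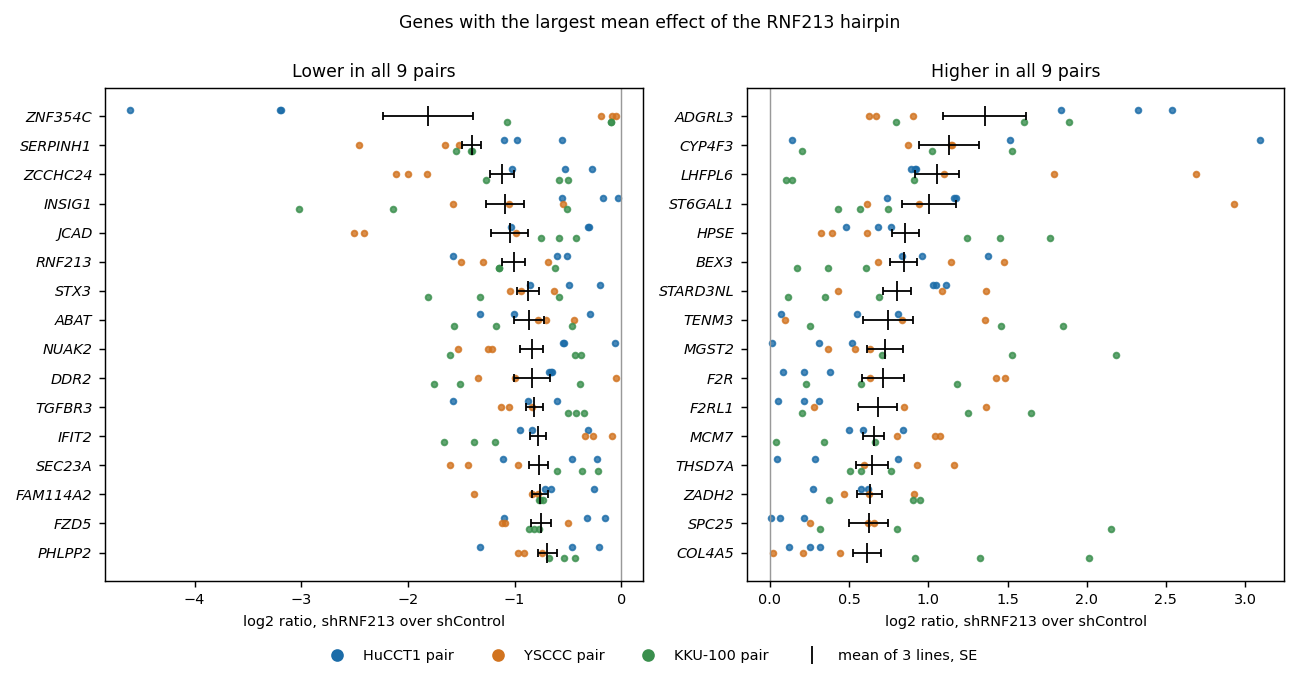
Log2 ratios of shRNF213 over shControl in each of 9 pairs (points, coloured by line) with the mean of the 3 within-line effects and its SE (black), for the 16 lower and the 16 higher genes with the largest mean effect among those with 1 direction in all pairs and a mean of at least 5 CPM. ZNF354C, at -1.81, is carried by HuCCT1, and SERPINH1, at -1.40, has effects of -0.87, -1.87 and -1.46 in HuCCT1, YSCCC and KKU-100.

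ZNF354C was listed at 0 CPM in the 3 HuCCT1 shRNF213 libraries, against 0.0818, 0.234 and 0.0815 CPM with shControl, and in YSCCC, where it is expressed, it had 32.2, 32 and 39.6 CPM with shRNF213, against 36.8, 33.9 and 40.9 CPM with shControl. Its call was lost without any 1 of the 9 pairs. ADGRL3, an adhesion receptor, had its largest effect (2.04) in HuCCT1 at 0.0401, 0.0482 and 0.463 CPM with shRNF213, against 0, 0 and 0.122 CPM with shControl, while in YSCCC it had 38.2, 35.4 and 27.8 CPM with shRNF213, against 24.7, 19 and 17.5 CPM with shControl.

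MCM7, a subunit of the replicative helicase, led the replication genes. HuCCT1 cells had 265, 303 and 364 CPM with shRNF213, against 148, 202 and 257 CPM with shControl. YSCCC cells had 136, 139 and 58.9 CPM with shRNF213, against 64.7, 67.6 and 33.8 CPM with shControl. In KKU-100 it had 67.2, 49.9 and 80.1 CPM with shRNF213, against 53.1, 48.5 and 50.5 CPM with shControl. Levels did not overlap in HuCCT1, while in KKU-100 replicate 2 barely differed. Over the 3 lines the mean effect was 0.66 (SE 0.068, adjusted p = 0.000248 by edgeR's quasi-likelihood test). Of 61 tested replication genes 4 rose (6.56%), and 26 had a positive effect at an unadjusted p under 0.05. E2F1 (0.50) and the chromatin assembly factor gene CHAF1A (0.32) were among the others, and 51 of the 61 had a positive mean effect (median 0.16). The list had 1 to 11 higher genes without 1 pair, with 1 when HuCCT1 replicate 1 or 3 or YSCCC replicate 1 or 2 was left out and 11 without KKU-100 replicate 2. Without KKU-100 replicate 3, where the list's median log2 ratio was 0.48, it had 2 and a median effect of 0.09.

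Of 61 mitosis genes 7 rose (11.5%), and 60 had a positive mean effect (median 0.35). The kinetochore genes SPC25 (0.62) and SPC24 (0.61), the checkpoint gene BUB3 (0.25), the transcription factor gene MYBL2 (0.58) and the phosphatase gene CDC25B (0.34) were higher in 9 of 9 pairs. The list differed between pairs. Its median log2 ratio was 2.15 in KKU-100 replicate 3 and between -0.13 and 0.35 in the other 8 pairs, and without that pair the median effect was 0.13, with 5 genes higher and 51 of 61 positive. MYBL2 had 32.2, 4.48 and 33.3 CPM in KKU-100 with shRNF213, against 15.5, 3.81 and 7.33 CPM with shControl. The list had 1 higher gene without HuCCT1 replicate 1 or without YSCCC replicate 1, and 19 without KKU-100 replicate 2. Leaving out both HuCCT1 replicate 2 and YSCCC replicate 3 left 0 mitosis genes called by edgeR.

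Histone genes went the other way. Of 27 tested, 3 fell by edgeR (11.1%, 2 to 5 without 1 pair) and 11 by DESeq2, and 26 had a negative mean effect (median -0.31). HIST2H2BE, a polyadenylated H2B gene, had 10.5, 11 and 10.2 CPM in HuCCT1 with shRNF213, against 14.6, 17.5 and 13.8 CPM with shControl. In YSCCC it had 17.3, 14.4 and 13.7 CPM with shRNF213, against 34.5, 34.9 and 22.5 CPM with shControl. The KKU-100 levels were 38.5, 24.3 and 18.5 CPM with shRNF213, against 44.5, 22.8 and 22.1 CPM with shControl. The groups were apart in HuCCT1 and YSCCC, and the mean effect was -0.55 (SE 0.074, adjusted p = 0.00137 by edgeR's quasi-likelihood test). HIST2H2BF (-0.72) and HIST1H2BJ (-0.55) were the others. The libraries were made from mRNA, so histone transcripts without a poly(A) tail are poorly sampled, and near-identical histone genes can share reads.

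Nuclear genes of the respiratory chain had small positive effects. Of 77 tested, 75 were positive (median 0.10), 3 rose (3.9%, 2 to 6 without 1 pair) and 1 fell (1.3%). COX4I1 (0.49) and COX6B1 (0.39), subunits of cytochrome c oxidase, and NDUFB5 (0.32), a subunit of complex I, rose, and SDHD, the membrane anchor of complex II, fell by 0.37 with groups apart in every line. All 13 mitochondrially encoded genes had a positive mean effect (median 0.11) and 0 passed the test by edgeR or DESeq2, with 5 at an unadjusted p under 0.05 by edgeR. The median log2 ratio of these 13 genes was positive in 6 pairs and negative in 3. It was 0.33 in HuCCT1 replicate 2 and 0.29 and 0.36 in KKU-100 replicates 1 and 3, while the median effect in YSCCC was 0.01. Of 67 proteasome and ubiquitin genes 2 rose (2.99%, 1 to 2 without 1 pair), UBE2E1 (0.52) and UBE2T (0.34), both ubiquitin-conjugating enzymes. Of 51 NRF2 and redox genes 4 rose (7.84%, 2 to 8 without 1 pair) and 2 fell (3.92%, 0 to 2), with MGST2 (0.73), GCLC (0.34) and AKR1C2 (0.59) among the higher ones. Besides the mitochondrially encoded genes, lists with 0 genes called by edgeR were hypoxia and glycolysis, translation and tRNA charging, and S100 and annexins. In the last 3 limma-voom also called 0. Of 44 hypoxia and glycolysis genes 9 higher and 4 lower had an unadjusted p under 0.05, and DESeq2 called 3 and 3. Of 64 translation genes 6 and 3 did, and DESeq2 called 2 higher and 1 lower. Of 28 S100 and annexin genes 6 and 3 did, and DESeq2 called 1 lower. Over all 19143 genes tested, 3261 had an unadjusted p under 0.05 in either direction, and DESeq2 called 550 higher and 504 lower.

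Markers of other cell types were read beside these genes. Of the hepatocyte markers SERPINA1 rose (0.48), and its call was lost in 8 of the 9 fits without 1 pair and by limma-voom. In HuCCT1, where SERPINA1 is most abundant, it had 207 to 280 CPM with shRNF213, against 202 to 268 CPM with shControl. ALB had 0 to 3 counts in shRNF213 and 0 to 6 in shControl libraries. Of the 5 stromal markers LUM rose (1.24), and its call was lost without KKU-100 replicate 1 or 3. It had 12 to 18 counts in KKU-100 with shRNF213, against 2 to 3 with shControl, while in YSCCC, where it is abundant, the groups overlapped at 29.8 to 238 CPM with shRNF213, against 43.2 to 165 CPM with shControl. COL3A1 had 4.01 to 4.73 CPM in YSCCC with shRNF213, against 7.64 to 11 CPM with shControl, and 9.56 to 34.1 CPM in KKU-100 with shRNF213, against 5.49 to 8.24 CPM with shControl. The summed stromal markers ran from 12.2 to 254 CPM in shRNF213 and from 7.14 to 193 CPM in shControl libraries. Of 3 endothelial markers 0 changed with the hairpin. CDH5 had 26.9 to 94.5 CPM in YSCCC with shRNF213, against 13.9 to 74.9 CPM with shControl, and was near 0 in the other lines. In YSCCC VWF had at most 0.884 CPM and PECAM1 at most 3.82 CPM. Among plasma protein genes CP, ceruloplasmin, rose by 1.57, with 3.32 in YSCCC and 0.16 in HuCCT1. The libraries came from cell lines and not from tissue, and the presence of other cell types was not tested. In bulk RNA, fewer cells that express a gene and less RNA per cell cannot be told apart.

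**Figure D4:**
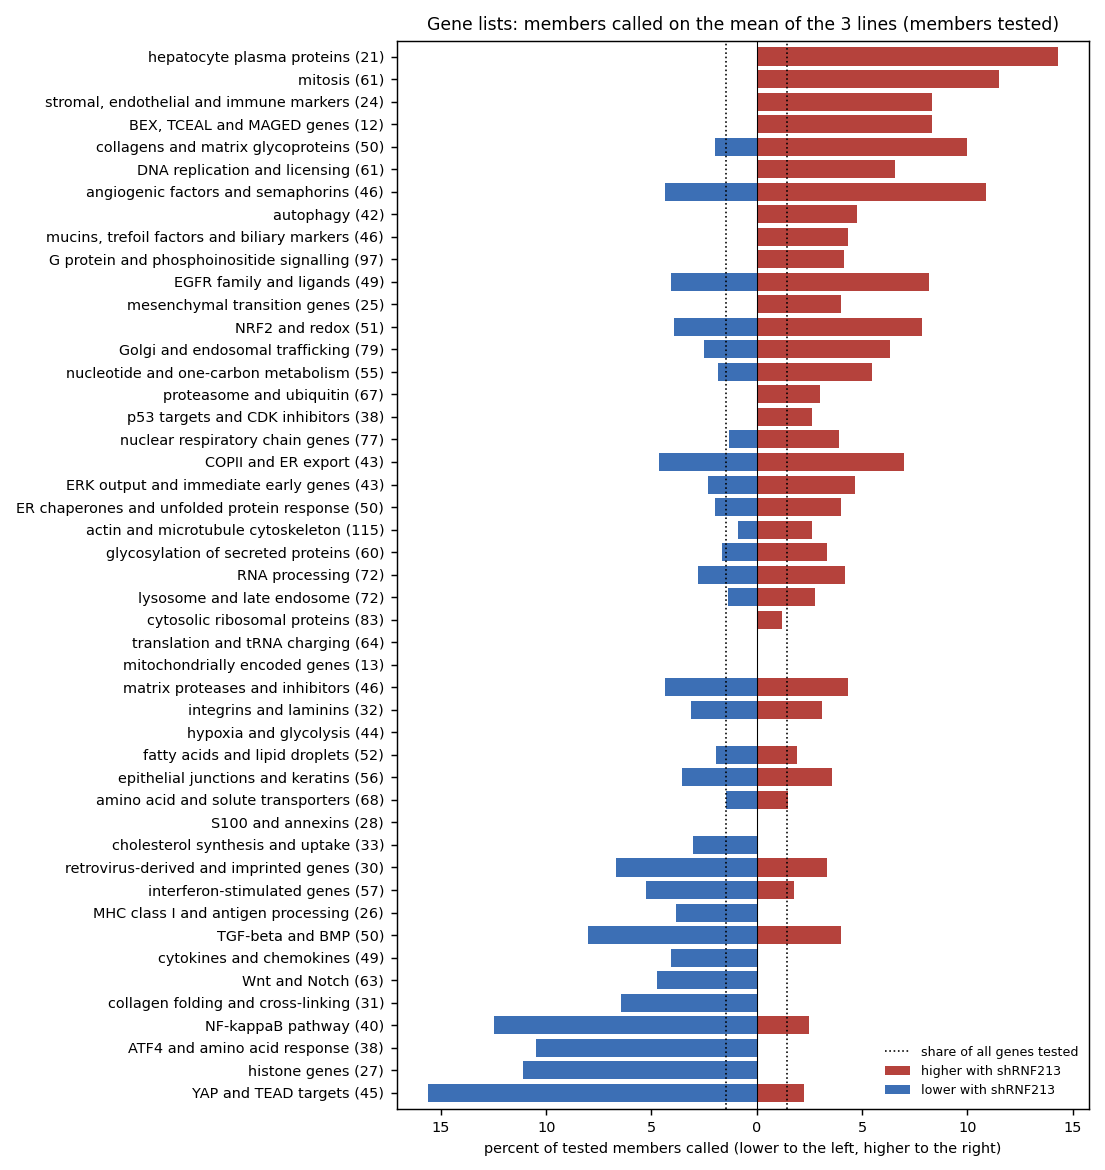
Percent of the tested members of each of 47 gene lists called higher (red) or lower (blue) with shRNF213 on the mean of the 3 lines, with the number tested in brackets; dotted lines give 1.43% higher and 1.47% lower for all genes tested. The list labelled YAP and TEAD targets, which also holds upstream parts of the Hippo pathway, reaches the largest lower share, 15.6%. Hepatocyte plasma proteins reach the largest higher share, 14.3% of 21 genes, which is 3 genes and 1 to 3 without 1 pair. Of these, 0 were higher in all 9 pairs, and the list's median effect was -0.02, with 10 genes positive and 11 negative.

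**Figure D5:**
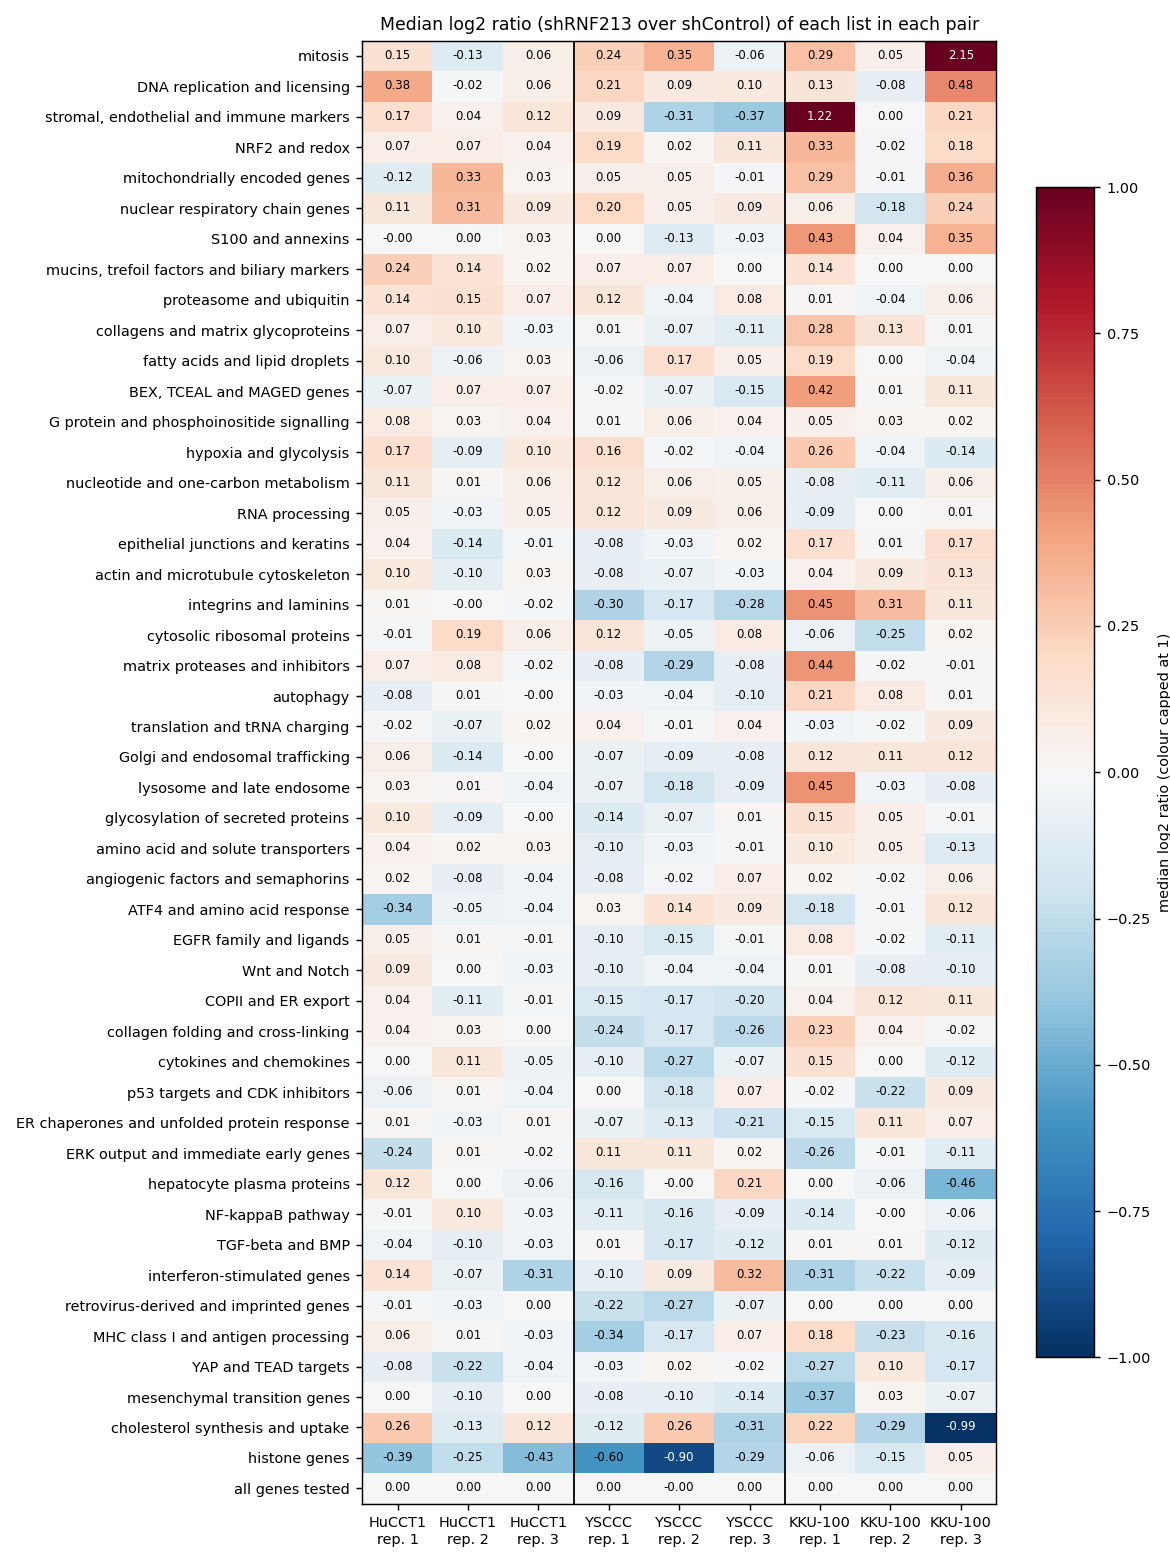
Median log2 ratio of shRNF213 over shControl for each of 47 lists and for all genes tested, in each of the 9 pairs. The mitosis list stands at 2.15 in KKU-100 replicate 3 and at 0.35 or less elsewhere, and the histone list is negative in 8 of 9 pairs.

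How far a call on the mean rested on single pairs or lines was read from the fits that leave libraries out. These fits reuse most of the libraries that chose the genes, so a kept call is not a test of sharing. Of the 555 genes, 179 kept their call in each of 9 fits without 1 pair (90 higher, 89 lower). The 179 include genes with unlike effects in HuCCT1, YSCCC and KKU-100, such as TGFA (-0.03, -0.25 and 1.73) and PEG10 (0.27, 1.39 and -0.09). Among these, 36 also kept it in each of 3 fits without 1 line. These 36 include, lower, SERPINH1, RNF213, STX3, TGFBR3, IFIT2, FZD5, TNFAIP3 and FAM114A2, and, higher, BEX3, HPSE, STARD3NL, MCM7, MGST2, RAB6A, EFNA5 and ZADH2. Of them, IFIT2 differed in size between the lines, as given above. A called gene outside the 179 lost its call without at least 1 pair. The call of BUB3 was lost in 4 of the 9 fits without 1 pair, that of MYBL2 in 4 and that of IL32 in 6. Over all genes tested, 24 (0.125%) had groups that did not overlap in any of the 3 lines with 1 direction, 13 higher (0.0679%) and 11 lower (0.0575%), and 23 of these were also called on the mean. Genes named here among them were SERPINH1, STX3, FAM114A2, ZADH2, RBFOX2, SDHD, TMED7, ATG12 and COL9A3. Of these, ATG12 and COL9A3 each lost their call in 8 of the 9 fits without 1 pair, and TMED7 in 6.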

How the data were processed

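RNA was measured by mRNA sequencing (TruSeq standard mRNA kit, per the labels' protocols). The submitters' processing notes name build GRCh38 and, without roles or order, HTSeq 0.6.1p1, STAR 2.5.1b, DESeq2 1.34.0, StringTie 2.1.6, FastQC 0.11.9 and Picard 1.139. Strand setting and filters are not stated there. Each deposited file holds, per the file headers, raw counts, TPM, FPKM, coverage and a DESeq2-normalized signal per gene for 1 library. The raw counts as deposited were used for all tests. The deposited TPM, FPKM, coverage and normalized signal were not tested.

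The counts were fitted with edgeR 4.0.16 (R 4.3.3; limma 3.58.1) by the quasi-likelihood test, with TMM factors and filterByExpr (minimum count 10, total 15) over 6 groups. The design had 9 blocks of line and replicate number and 3 hairpin effects, leaving 6 residual degrees of freedom. The mean of the 3 effects was tested, and a joint test compared the lines. Adjusted p-values are Benjamini-Hochberg over 19143 genes, with a threshold of 0.05. CPM use TMM-scaled library sizes, and pair ratios add 0.01 CPM. Genes are named by a rule: the 16 largest mean effects per direction with at least 5 CPM and 1 direction in 9 pairs, and up to 4 per list and direction with the smallest p. Genes outside it (LATS1, LATS2, AMOTL1, TRAF2, CDC25B, COL5A2, SEMA3E) were named after their values were seen, as were those of the leave-out fits. The members and the 47 gene lists were chosen with earlier results of these data known.

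Replicate numbers were taken to pair libraries of a line, since deviations from the group means of same-numbered libraries correlated at 0.406 to 0.902 in each of the 9 pairs. Some unlike-numbered libraries also correlated, up to 0.658 in YSCCC. No 2 libraries were identical. Alternatives were no replicate block, 1 common effect, other scalings and filters, DESeq2 1.42.0, limma-voom, leaving out each pair or line, and, added after seeing the data, leaving out both HuCCT1 replicate 2 and YSCCC replicate 3. Library depths of 21056732 to 25502097 counts limit genes of a few counts. The fits were tested on simulated data. Figures were drawn with matplotlib. Some called genes of the lists are not reported here by name.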

Additional observations from a re-analysis of the deposited data

Results flagged for a closer look

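For 28 of the genes named here the effect of the hairpin differed between HuCCT1, YSCCC and KKU-100 by the joint test in edgeR's quasi-likelihood fit. Effects are given as log2 values in that order, with the adjusted p of the joint test, and the cause was not tested in any of them.

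Several genes had their largest effect in KKU-100. SLC6A14, an amino acid transporter, had effects of 0.75, -0.06 and 3.02 (adjusted p = 0.00378). The growth factor gene TGFA had -0.03, -0.25 and 1.73 (adjusted p = 0.000929), and EXPH5, a Rab27 effector, had 0.03, 0.49 and 2.32 (adjusted p = 0.00452). In the matrix, ABI3BP had -0.03, 0.48 and 2.29 (adjusted p = 0.0133), COL4A5 had 0.23, 0.22 and 1.38 (adjusted p = 0.0238), and the protease gene MMP14 had 0.12, -0.54 and -1.16 (adjusted p = 0.0325). The integrin gene ITGB4 had 0.01, 0.17 and 1.19 (adjusted p = 0.0354) and the keratin gene KRT17 had 0.43, -1.06 and -2.36 (adjusted p = 0.0378). NRP1 had -0.11, 0.28 and 0.93 (adjusted p = 0.0255) and its ligand gene SEMA3C had 0.13, -0.21 and 0.95 (adjusted p = 0.00766). IFIT2 was lower in each line, at -0.70, -0.23 and -1.41 (adjusted p = 0.0129).

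Others had their largest effect in YSCCC. CP had 0.16, 3.32 and 1.25 (adjusted p = 0.0112), AGR2, a disulfide isomerase of mucus-secreting cells, had -0.01, 1.70 and 1.61 (adjusted p = 0.00888), and GNG11 had 0.09, 1.56 and 0.21 (adjusted p = 0.0088). The imprinted gene PEG10 had 0.27, 1.39 and -0.09 (adjusted p = 0.00192), and SLC35A1, which carries CMP-sialic acid into the Golgi, had 0.38, 1.04 and 0.03 (adjusted p = 0.0291). RAB9A had 0.62, 1.03 and -0.05 (adjusted p = 0.0306) and HINT2 had 0.92, 1.16 and -0.02 (adjusted p = 0.0451). On the lower side, INHBE had -0.99, -2.07 and -0.08 (adjusted p = 0.0221), ZCCHC24 had -0.60, -1.98 and -0.78 (adjusted p = 0.0438), IL32 had 0.09, -1.51 and -0.32 (adjusted p = 0.0346) and CFL2, an actin-severing cofilin, had -0.36, -1.12 and -0.33 (adjusted p = 0.0333). NCEH1 had -0.18, -0.93 and 0.10 (adjusted p = 0.00642), P3H4 had -0.12, -0.91 and -0.05 (adjusted p = 0.0237) and the chaperone cofactor gene DNAJC3 had -0.33, -0.61 and 0.20 (adjusted p = 0.0297).

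The last group had alike effects in a pair of lines and the opposite sign in the other. The splicing regulator gene PTBP3 had 0.56, 0.47 and -0.20 (adjusted p = 0.0297), PARP12 had 0.47, 0.47 and -0.12 (adjusted p = 0.0449), and QKI, another RNA-binding protein gene, had -0.56, 0.16 and -0.40 (adjusted p = 0.0435).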

How the results depend on the processing

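RNF213 kept its direction and call under each alternative run, between -0.87 and -1.08. The count of 555 genes on the mean (273 higher, 282 lower) was 28 (16 and 12) with no replicate block, 256 (131 and 125) with 1 common hairpin effect, 907 (507 higher) with no filter on low counts and 1054 (550 and 504) by DESeq2. Without 1 pair it ran from 226 to 1011, with 110 to 569 higher and 116 to 442 lower. Leaving out YSCCC gave 99 (54 and 45), leaving out KKU-100 gave 502 lower, and leaving out both HuCCT1 replicate 2 and YSCCC replicate 3, chosen after seeing the data, gave 179 (103 and 76). The count of 227 genes with 1 direction in all pairs was 21 with no replicate block, 150 with 1 common effect, 127 to 398 without 1 pair, 69 leaving out YSCCC, 571 leaving out KKU-100 (these over fewer pairs) and 115 without both pairs. The count of 332 genes that differed between lines was 0 with no replicate block (edgeR), 862 with no filter, 955 by DESeq2, 87 to 610 without 1 pair, 220, 15 and 86 leaving out HuCCT1, YSCCC and KKU-100, and 49 without both pairs. Genes called in each of the 3 lines, 0 in the reported fit, were 7 with no filter, 5 by DESeq2 and 0 to 3 without 1 pair. Of 154 named genes 137 lost their call with no replicate block. Leaving out KKU-100 turned TGFA to -0.142 and SEMA3C to -0.044. The causes were not tested beyond the fewer libraries that some fits hold. Genes near a few counts are limited by depth.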

Other observations

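Gene lists not described above had few genes called on the mean of the 3 lines by edgeR, and several shares lay near the 1.43% higher and 1.47% lower of all genes tested. Of 115 actin and microtubule genes 3 rose (2.61%, 1 to 8 without 1 pair), among them the GTPase gene RAC1 (0.30, higher in 9 of 9 pairs) and LASP1 (0.27), and 1 fell (0.87%), CFL2 (-0.61). Of 72 RNA processing genes 3 rose (4.17%, 1 to 4 without 1 pair) and 2 fell (2.78%, 1 to 4). SNRPD3, a core spliceosome protein, rose by 0.52, with an effect of 0.0025 in KKU-100, and the splicing regulator gene RBFOX2 fell by 0.40 in 9 of 9 pairs. Of 56 epithelial junction and keratin genes 2 rose (3.57%, 0 to 4 without 1 pair), TJP3 (0.70) and DSC3 (0.66), and 2 fell (3.57%, 0 to 3), KRT17 (-0.997) and DSP (-0.25). Of 25 mesenchymal transition genes 1 rose (4%, 0 to 2 without 1 pair), CDH2 (0.38), and the list's median was -0.16.

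Autophagy held 2 higher genes of 42 (4.76%), ATG12 (0.23) and ATG4A (0.32), and each lost its call in 8 of the 9 fits without 1 pair. Of 55 genes of nucleotide and one-carbon metabolism 3 rose (5.45%, 1 to 4 without 1 pair) and 1 fell (1.82%, 0 to 1), and those that rose include HINT2 (0.69) and the kinase gene DCK (0.40). Of 83 cytosolic ribosomal protein genes RPL15 was the only one called by edgeR (0.21), and its call was lost in 8 of the 9 fits without 1 pair, while DESeq2 called 2 higher. Of 38 p53 targets edgeR called CCNG1 (0.31), which lost its call in 5 of those fits, while DESeq2 called 1 higher and 3 lower. Among retrovirus-derived and imprinted genes PEG10 rose (0.52) and GRB10 (-0.38) and PNMA1 (-0.38) fell, of 30 tested (3.33% higher and 6.67% lower, with 0 to 3 lower without 1 pair).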
